A study of Homo sapiens with 6 samples.

Results

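Nuclear pore genes were examined for Myc binding in MDA-MB-231 cells, a human triple-negative breast cancer line, with and without the thioredoxin interacting protein TXNIP. The 30 genes were a list of nucleoporins, chosen by name out of 19785 protein-coding genes. Chromatin was immunoprecipitated with a Myc antibody and sequenced in the parental line and in TKO cells, a derivative from which TXNIP was removed by CRISPR/Cas9 editing. Both lines were grown in the same medium with fetal bovine serum, and each contributed 2 Myc libraries. Input chromatin of each line served as the control in peak calling. The knockout cells were grown out from single cells, so clone and genotype cannot be told apart here. The comparison asks how Myc occupancy differs once TXNIP is gone.

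The nuclear pore complex is the channel through which proteins and RNA pass between nucleus and cytoplasm. It is built from a membrane ring, an inner ring that lines the pore, Y-shaped scaffold complexes on both faces, a central channel of disordered FG repeats, filaments on the cytoplasmic side and a basket on the nuclear side. Myc is a transcription factor that binds promoters of genes for cell growth, classically with Max at the E-box CACGTG. Growing cells need to make new pores, and many nucleoporin genes are transcribed in most cell types.

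The peak lists held 3720 and 5719 peaks in parental replicates 1 and 2, and 27213 and 25887 in TKO replicates 1 and 2. Recovered depth went the other way, with 26.4 and 22.2 M reads for the parental pair and 19.9 and 13.0 M for the TKO pair. Fragment extension, read from the narrowest peak of a list, was shorter in the parental libraries (140 and 151 bp) than in the TKO libraries (182 and 201 bp). A promoter peak had its summit within 1 kb of an annotated start site. Signal at a summit was expressed as recovered reads per 1 M reads of that library (RPM). The percentile of a peak is its rank by fold enrichment within its own list, where 100 is the strongest. As the lists differ in length, percentiles describe a peak within its list and are not a measure of change between the cell lines.

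Sequences around the summits are shown for members that differ in the motif under the peak. NUP35 and NUP88 had a canonical E-box within 50 bp of the summit in both TKO libraries, RANBP2 was the strongest member without one, and NUP43 was a gene the study examined. NUP98, NUP153 and NUP107 were added after their values were seen, the first pair for an E-box near the summit in some libraries and NUP107 for several motifs in a single window. All are GRCh37 sequence on the strand of the gene, with the motif in capitals, and windows were shortened where they met an untranslated region. The NUP35 window was chr2:183989527-183989627 (+), the NUP88 window chr17:5323376-5323405 (-), the NUP98 window chr11:3819256-3819356 (-) and the NUP153 window chr6:17706337-17706437 (-), each with the canonical E-box in capitals. The RANBP2 window was chr2:109335786-109335886 (+), with a variant E-box in capitals. The NUP43 window was chr6:150067666-150067740 (-), with a CCAAT box in capitals. The NUP107 window was chr12:69080617-69080717 (+), with a CCAAT box on the opposite strand and an NRF1 core that overlaps variant E-boxes in capitals.
NUP35: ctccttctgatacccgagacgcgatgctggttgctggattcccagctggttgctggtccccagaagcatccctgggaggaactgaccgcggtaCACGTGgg
NUP88: atcgaccggcccCACGTGgagacagattta
NUP98: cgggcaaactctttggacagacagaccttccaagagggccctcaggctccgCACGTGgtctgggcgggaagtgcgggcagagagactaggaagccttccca
NUP153: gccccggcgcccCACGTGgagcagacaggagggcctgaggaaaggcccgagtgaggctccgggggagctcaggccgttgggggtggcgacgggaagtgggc
RANBP2: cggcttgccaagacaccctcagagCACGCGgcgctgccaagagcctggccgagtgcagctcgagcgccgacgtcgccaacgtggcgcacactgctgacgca
NUP43: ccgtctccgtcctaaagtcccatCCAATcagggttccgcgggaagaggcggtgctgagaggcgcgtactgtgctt
NUP107: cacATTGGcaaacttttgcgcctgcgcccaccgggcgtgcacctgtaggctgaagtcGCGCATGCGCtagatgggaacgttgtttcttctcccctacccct

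In TKO cells nearly every nuclear pore gene carried Myc at its promoter. Of the 30 genes, 29 had a promoter peak in TKO replicate 1 and 29 in TKO replicate 2, against 49.1% and 49.7% of all protein-coding genes. In parental replicates 1 and 2 the counts were 16 and 15 of 30, against 12.2% and 12.9% of all genes. The single member with no peak in any library was NUP210, a membrane-spanning nucleoporin, and 46.3% of all genes likewise had none. The ratio of members with a peak, TKO over parental, was 1.87, and over all genes it was 3.94. With 29 of 30 members bound in TKO cells, the members' ratio was near its ceiling. The ratios therefore cannot be set side by side. With the window widened to 5 kb the members' counts were 16, 16, 29 and 29, against 13.9%, 15.5%, 54.6% and 55.5% of all genes.

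A promoter peak was present in all 4 libraries at 14 members, which is 46.7% of the list, and the share over all genes was 9.32%. The 14 were NUP35, NUP42, NUP54, NUP62, NUP88, NUP98, NUP107, NUP153, NUP155, NUP205, TPR, RANBP2, SEH1L and AHCTF1. Another 12 members had peaks in TKO replicates 1 and 2 but lacked one in parental cells (40.0%, against 29.8% of all genes). These were NUP37, NUP43, NUP50, NUP58, NUP93, NUP133, NUP188, NUP214, SEC13, AAAS, NDC1 and RAE1. The last 3 members with peaks, NUP85, NUP160 and POM121, had one in both TKO libraries and in a single parental library (10.0%, against 6.16% of all genes). With the full lists, no member had a peak in parental cells and lacked one in TKO cells. Few of all genes could differ in this. Of all genes, 15.7% had a peak in any parental library. Peaks in all 4 libraries made up 9.32%, and peaks in both TKO libraries and 1 parental library 6.16%. These counts moved with list length. When each list was restricted to its 3720 most significant peaks, members with a promoter peak numbered 16, 11, 16 and 17 in parental replicates 1 and 2 and TKO replicates 1 and 2, and the shares of all genes were 12.2%, 9.07%, 13.3% and 13.6%. The group bound in TKO cells alone then held 3, and AHCTF1 had a promoter peak in both parental lists and in neither TKO list. The shares of all genes in these classes were not counted at this list length.

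**Figure D1:**
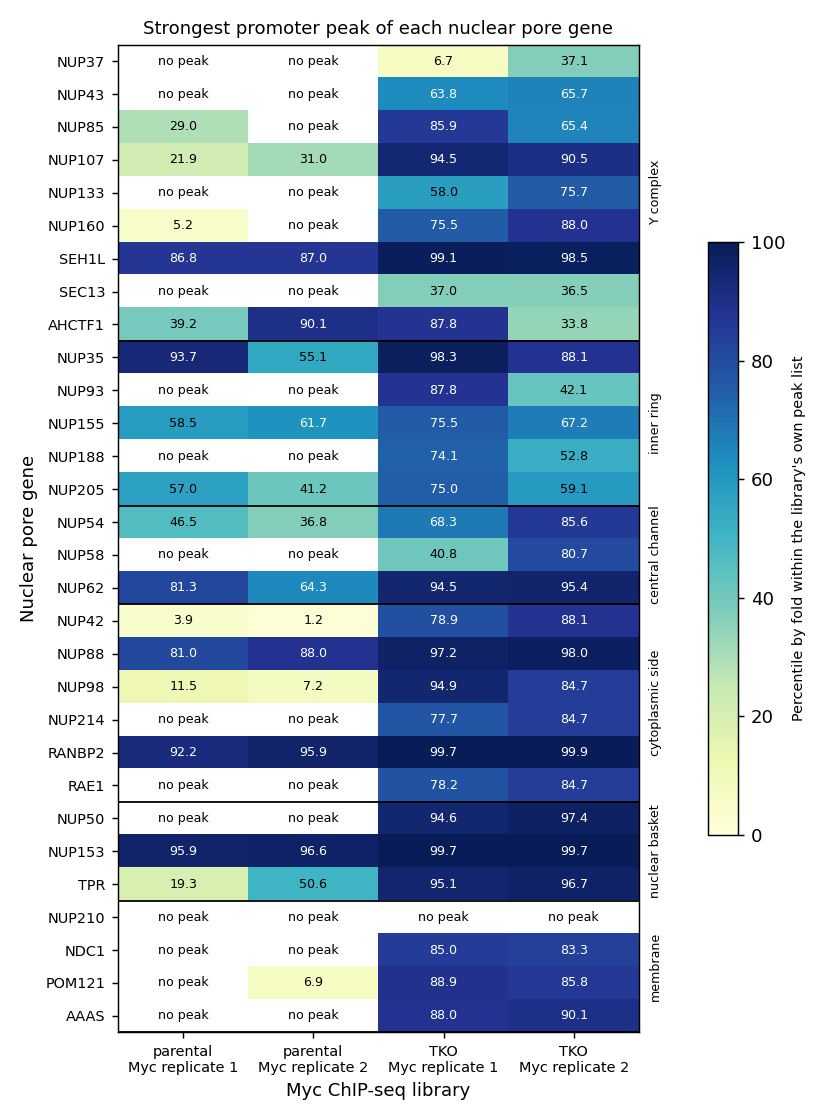
Percentile by fold, within each library's own list, of the strongest promoter peak of the 30 nuclear pore genes (rows, by place in the pore) in the 4 Myc libraries (columns). White cells have no promoter peak, and only NUP210 is white in all 4 libraries.

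By place in the pore, every group except the membrane group had all of its genes bound in TKO cells. The Y complex, the outer scaffold, had 5 and 3 of its 9 genes bound in parental replicates 1 and 2 and all 9 in both TKO libraries. The inner ring had 3 of 5 in each parental library and 5 in each TKO library, and the central channel 2 of 3 and then 3. On the cytoplasmic side 4 of 6 genes were bound in each parental library and 6 in each TKO library. In the nuclear basket the counts were 2 of 3 and then 3. The membrane group stood at 0 and 1 of 4 in parental cells and at 3 of 4 in both TKO libraries. These groups are small, and no test was made between them.

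Other genes of nuclear transport also gave higher counts in the TKO libraries. Of 25 transport receptors, the importins and exportins that carry cargo through the pore, 13 and 12 had a promoter peak in parental cells and 21 and 22 in TKO cells. All 6 genes of the Ran cycle, which sets the direction of transport, had a peak in each TKO library, and 2 had one in each parental library. Of 17 mRNA export genes, 6 and 9 were bound in parental cells and 15 and 16 in TKO cells. The nuclear envelope and lamina list had 5 and 3 of 15 in parental cells and 12 and 11 in TKO cells. Among the 4 remaining pore proteins, POM121C, NUP210L, NUP62CL and TMEM33, 0 and 1 were bound in parental cells and 3 in each TKO library. NUP210L, the paralog of NUP210, was the one without a peak in any library.

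**Figure D2:**
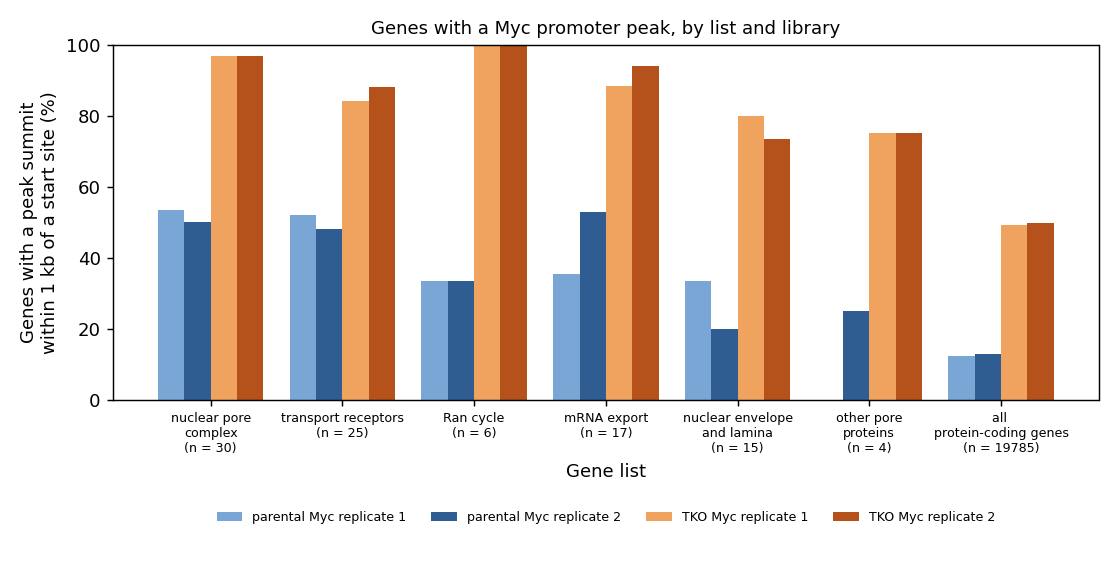
Percent of genes in each list with a Myc peak summit within 1 kb of a start site (bars, 1 per library). Nuclear pore genes stand at 53.3% and 50.0% in the parental libraries and 96.7% in both TKO libraries, and all protein-coding genes at 12.2%, 12.9%, 49.1% and 49.7%.

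The strongest member was RANBP2, the giant cytoplasmic filament protein that binds Ran and acts as a SUMO ligase. Its promoter peak had 79 and 58 summit reads in parental replicates 1 and 2 and 158 and 123 in TKO replicates 1 and 2. These equal 2.99 and 2.61 RPM in parental cells and 7.92 and 9.43 RPM in TKO cells. Both TKO values lay above both parental values, as at 99% of the 1843 genes with a promoter peak in all 4 libraries. Within their own lists the parental peaks ranked at percentiles 92.2 and 95.9, and those of TKO cells at 99.7 and 99.9. The 4 summits fell within 26 bp of each other, 84 to 110 bp upstream of the start site. RANBP2 has near-identical copies in the RGPD genes, and how reads that match several places were handled is not given in the sources used here, so its level is uncertain.

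Of the other cytoplasmic-side genes, NUP88, which anchors the mRNA export platform, had 2.19 and 2.39 RPM in parental cells and 6.32 and 6.44 RPM in TKO cells. Its 4 summits lay within 18 bp of each other, in an untranslated region at the canonical E-box shown above, and its start site is 18 bp from that of the head-to-head gene RPAIN. NUP98, which carries the GLFG repeats and is processed together with NUP96 from a shared precursor, had 1.85 and 1.67 RPM in parental cells and 3.16 and 3.76 RPM in TKO cells. Its summits lay 260 to 340 bp upstream of NUP98, inside an intron of the divergent gene PGAP2, so the signal cannot be assigned to either gene. NUP42, a docking site for mRNA export factors, had 1.29 and 1.13 RPM in parental cells and 2.81 and 3.68 RPM in TKO cells. Its parental peaks were among the weakest of their lists, at percentiles 3.90 and 1.21.

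In the nuclear basket, NUP153 was as high in rank as RANBP2. NUP153 binds import receptors and chromatin at the nuclear face, and its strongest promoter peak had 2.54 and 2.57 RPM in parental cells and 5.26 and 6.14 RPM in TKO cells. Both TKO libraries and parental replicate 1 had their summit 678 to 760 bp downstream of the start site, in an intron, whereas parental replicate 2 ranked a peak 75 bp upstream of the start highest. Both positions carried a peak in both parental libraries and in TKO replicate 2, and in TKO replicate 1 a single peak of 1560 bp spanned both. TPR, the coiled-coil protein of the basket filaments, had 1.10 and 1.26 RPM in parental cells and 2.86 and 3.84 RPM in TKO cells.

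Among scaffold genes, SEH1L, a β-propeller subunit of the Y complex that is shared with the GATOR complex of nutrient sensing, had 1.10 and 1.04 RPM in parental cells and 3.26 and 3.37 RPM in TKO cells. The strongest parental peaks had summits 194 and 169 bp downstream of the start site in coding sequence, and the strongest TKO peaks 616 and 604 bp downstream in an intron. Both parental libraries also had a peak at the intron position, at 0.946 and 1.08 RPM. NUP107, a core Y-complex subunit, had 1.32 and 1.17 RPM in parental cells and 2.76 and 2.68 RPM in TKO cells. AHCTF1, which encodes ELYS, the protein that seeds pore assembly on chromatin, had 0.605 and 1.04 RPM in parental cells and 1.55 and 1.30 RPM in TKO cells. These were the lowest values of the 14 in each library, equal to SEH1L in parental replicate 2. The strongest AHCTF1 peak was narrow in each library, between 219 and 268 bp.

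The inner ring contributed NUP35, NUP155 and NUP205. NUP35, a membrane-bending adaptor of the ring, had 1.97 and 1.67 RPM in parental cells and 5.41 and 4.07 RPM in TKO cells, with all 4 summits 393 to 435 bp downstream of the start. NUP155, a large ring subunit, had 1.55 and 2.03 RPM in parental cells and 4.11 and 4.45 RPM in TKO cells. NUP205, one of the large scaffold subunits, had 1.78 and 1.49 RPM in parental cells and 4.66 and 4.60 RPM in TKO cells. In all of these the lower TKO value exceeded the higher parental value, as at 99% of the 1843 genes with a promoter peak in all 4 libraries.

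In the central channel, NUP62, whose FG repeats line the transport path, had 2.16 and 1.85 RPM in parental cells and 3.86 and 5.06 RPM in TKO cells. Its summits fell in untranslated sequence of both NUP62 and IL4I1, with start sites of IL4I1 and ATF5 within 1 kb, so the peak cannot be credited to NUP62 alone. NUP54, its partner, had 1.40 and 1.44 RPM in parental cells and 2.66 and 3.84 RPM in TKO cells. NUP58, the other partner, had a peak only in the TKO libraries.

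**Figure D3:**
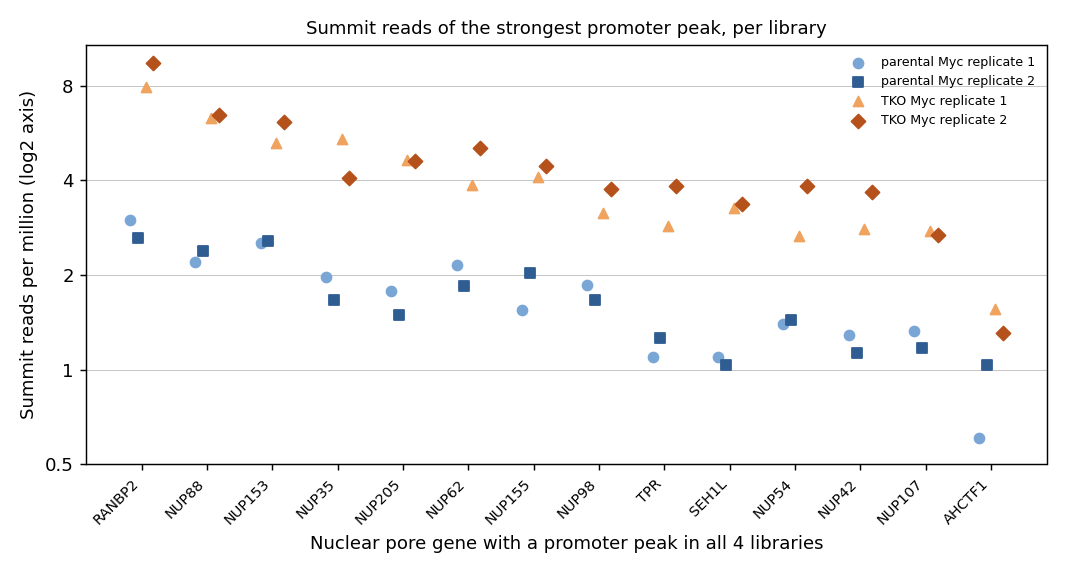
Summit RPM (log2 axis) of the strongest promoter peak of the 14 nuclear pore genes with a peak in all 4 libraries. At each of the 14 genes both TKO values lie above both parental values, as at 99% of the 1843 genes with a peak in all 4 libraries.

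Summit RPM was compared between the cell lines over the 1843 genes that had a promoter peak in every library. All 14 members in this set were higher in TKO cells by limma with Benjamini-Hochberg adjustment over the 1843 genes, with 2 libraries a group. Of the 1843 genes, 99.3% were likewise called higher, so the members' count did not stand apart from it. The median log2 difference, TKO minus parental, was 1.32 over the 14 members and 1.35 over all genes fitted. The other 16 members lacked a value in at least one library and were not fitted.

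SEH1L had the highest log2 difference among the 14, 1.64 ± 0.22 (SE, limma adjusted p = 1.5e-08), a 3.11-fold rise. This sets peaks at different positions side by side. The difference for SEH1L was 1.61, just under that of RANBP2, with the peak of most summit reads, and 1.199 with a window of 500 bp. RANBP2 followed at 1.63 ± 0.22 (limma adjusted p = 2.0e-08), and its mean went from 2.80 ± 0.265 RPM in parental cells to 8.68 ± 1.07 RPM in TKO cells (SD, n = 2 each). The lowest were NUP98 at 0.97 ± 0.22 (limma adjusted p = 6.6e-05) and AHCTF1 at 0.85 ± 0.23 (limma adjusted p = 0.00077), a 1.80-fold rise. The exact two-sided permutation test over the 4 libraries gave p = 0.333 for each of the 14, the smallest value that 2 libraries against 2 can give.

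The general rise moved with properties of the libraries. TKO lists had the longer fragment extension, and when summit reads were divided by it the members' median log2 difference was 0.93 and that of all genes 0.95. AHCTF1 then no longer passed (0.45, limma adjusted p = 0.067). When each library was centred on the median of all genes fitted, no member was called (limma adjusted p 0.37 to 0.97 over the 14, with 0 of 14 at an unadjusted p under 0.05), and 0.38% of all genes were. In that scaling 7 members lay above and 7 below the median of all genes, from −0.50 for AHCTF1 to 0.29 for SEH1L. Libraries carried no spike-in or other external standard, so an effect common to all promoters and a difference in immunoprecipitation yield cannot be told apart.

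**Figure D4:**
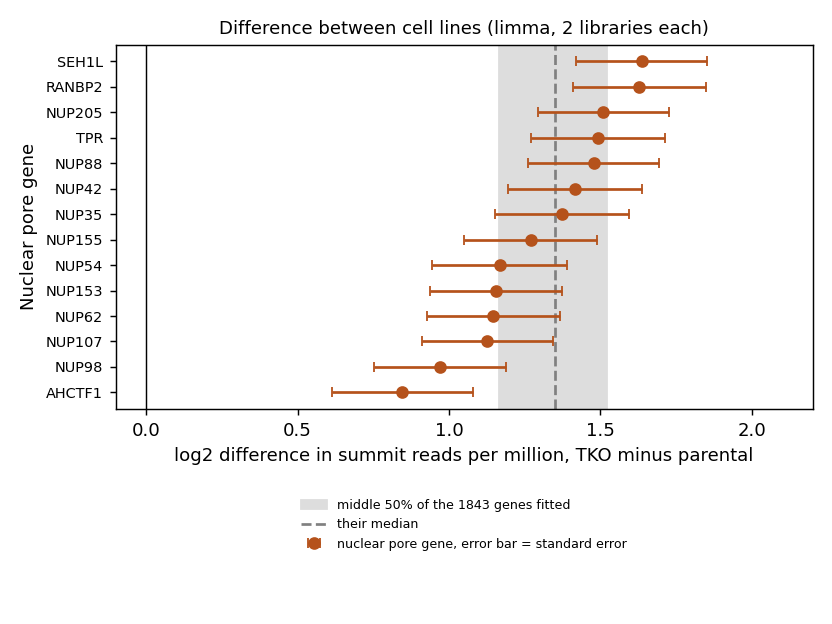
Log2 difference in summit RPM, TKO minus parental, of the 14 nuclear pore genes with a peak in all 4 libraries (points, with the limma standard error, 2 libraries per cell line). The dashed line is the median of the 1843 genes fitted, 1.35, and the grey band holds their middle 50%, from 1.17 to 1.52, with 7 of the 14 members outside it.

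The 12 members bound in TKO cells alone had lower summit signal in TKO cells than the 14 bound throughout, with overlapping ranges. Their strongest promoter peaks had a median of 1.70 and 1.99 RPM in TKO replicates 1 and 2, against 3.56 and 3.95 RPM for the 14. The 12 ranged from 1.53 to 3.30 RPM in TKO replicate 2 and the 14 from 1.30 to 9.43 RPM. Over all genes the same classes had medians of 1.35 and 1.69 RPM and of 3.41 and 3.84 RPM. In rank, the 12 stood at median percentiles of 75.9 and 78.2, and all genes of that class at 62.6 and 63.3. The 14 did not rank above their class, with medians of 94.7 and 89.3 against 95.1 and 94.7 over all genes of it.

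NUP50, a basket protein that helps release import cargo, ranked highest of the 12. It had 33 summit reads in each TKO library, 1.65 and 2.53 RPM, at percentiles 94.6 and 97.4. AAAS, or aladin, the gene of triple A syndrome, had 1.25 and 1.84 RPM at percentiles 88.0 and 90.1. Its strongest peaks in the TKO libraries lay 3394 bp apart, at different annotated start sites, and each TKO library carried a peak at both.

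NDC1, a membrane protein that anchors the pore, had 2.86 and 3.30 RPM in TKO cells, the highest level of the 12 in TKO replicate 2. RAE1, an mRNA export factor that binds NUP98, had 1.85 and 1.99 RPM. NUP214, the cytoplasmic filament protein found fused in some leukaemias, had 3.06 and 2.99 RPM, and NUP133, a Y-complex subunit, had 1.35 and 1.99 RPM. All of these had no promoter peak in either parental list. The lowest summits anywhere in those lists stood at 0.492 and 0.451 RPM, but calling depends on the local background. That minimum is therefore not a detection limit at these genes. NUP42, with a higher background, had parental peaks of 1.29 and 1.13 RPM that ranked only at percentiles 3.90 and 1.21.

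NUP43, a β-propeller subunit of the Y complex, had no peak within 5 kb in either parental library and 2 and 3 peaks in the TKO libraries (exact two-sided permutation p = 0.333). Its promoter peak had 35 and 25 summit reads, 1.75 and 1.92 RPM, at percentiles 63.9 and 65.7. The summit lay 25 bp upstream of the start site in TKO replicate 1 and 44 bp downstream, in coding sequence, in TKO replicate 2. The window printed above holds a CCAAT box and no canonical E-box.

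NUP85, NUP160 and POM121 were seen in a single parental library. NUP85, a Y-complex subunit, had 1.21 RPM in parental replicate 1, no peak in parental replicate 2 and 2.91 and 2.53 RPM in TKO cells. NUP160, another Y-complex subunit, had 0.870 RPM in parental replicate 1, no peak in parental replicate 2 and 2.36 and 2.91 RPM in TKO cells. POM121, a membrane nucleoporin, had no peak in parental replicate 1, 1.04 RPM in parental replicate 2 and 1.60 and 1.76 RPM in TKO cells. These TKO values belong to the peak of highest fold, at a downstream start site. At the start site of the parental peak the TKO libraries also had a peak, with 2.06 and 1.92 RPM. POM121 shares near-identical sequence with POM121C, so its reads are uncertain.

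Rank by fold was read against all bound genes of the same library. The median percentile of the members' strongest promoter peak was 51.7 and 55.1 in parental replicates 1 and 2, against 56.9 and 57.0 over all genes with a promoter peak. In TKO replicates 1 and 2 it was 85.9 and 84.7, against 71.0 and 70.6 over all such genes. Of the 29 bound members, 22 and 20 ranked above percentile 75 of their TKO list (75.9% and 69.0%), against 45.1% and 44.6% of all bound genes. The groups compared differ in make-up. A peak in all 4 libraries was present at 14 of the 29 members, and at 1843 of the 9719 and 9843 bound genes. Within that class the members' medians were 94.7 and 89.3, against 95.1 and 94.7 over all genes. In the class bound in TKO cells alone they were 75.9 and 78.2, against 62.6 and 63.3. Within the 3720 most significant peaks of each TKO list the members' median was 43.4. The transport receptors had medians of 91.8 and 86.8 in the TKO libraries, and the Ran cycle genes 88.6 and 92.5.

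Peaks at members were broad in TKO cells. The median width was 282 and 258 bp in the parental libraries and 724 and 762 bp in TKO, and over all genes with a promoter peak it was 243, 241, 468 and 475 bp. All 22 promoter peaks of members in parental replicate 1 overlapped a TKO peak in both TKO libraries, and 21 lay wholly inside one in each. Of the 21 in parental replicate 2, 20 and 21 overlapped a peak of TKO replicates 1 and 2. The TKO lists were longer and their peaks wider, and this overlap was not counted over all genes, so it is not particular to members. Peak number did not follow signal at every gene. SEH1L had 3 peaks within 5 kb in each parental library and 2 in each TKO library, and NUP62 and NUP155 had 2 in each parental library and 1 in each TKO library. At these genes every parental peak lay inside a wider TKO peak in each TKO library, so the lower number was not a loss of bound sequence. In all, 14 members had more peaks within 5 kb in both TKO libraries than in either parental library (46.7%, against 38.4% of all genes), and 3 had fewer (10.0%, against 0.212%). The last shares cannot be set side by side, as a gene without a parental peak cannot have fewer. A peak within 5 kb in any parental library was present at 18 of the 30 members and at 18.5% of all genes.

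Summits were close to start sites and mostly at the same place. In parental replicates 1 and 2, 62.5% and 86.7% of bound members had the summit within 250 bp of a start site, against 71.4% and 72.2% of all bound genes. In the TKO libraries 22 of 29 members (75.9%) had the summit within 250 bp of a start site in each library, against 64.7% and 65.9% of all bound genes. The TKO summits of a member were a median of 37 bp apart, and 26 of 29 were within 100 bp. Over the 14 members bound in all libraries the 4 summits spanned a median of 70.5 bp, and the strongest peaks of all 4 libraries overlapped at 12. The exceptions were NUP153, described above, and NUP155, whose parental replicate 1 summit lay 441 bp upstream of the start and the others within 66 bp of it. Under a 50% reciprocal overlap of all 4 peaks the count was 1, AHCTF1. Distances between summits and overlaps of the strongest peaks were not counted over all genes, so they are not shown to be particular to members.

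**Figure D5:**
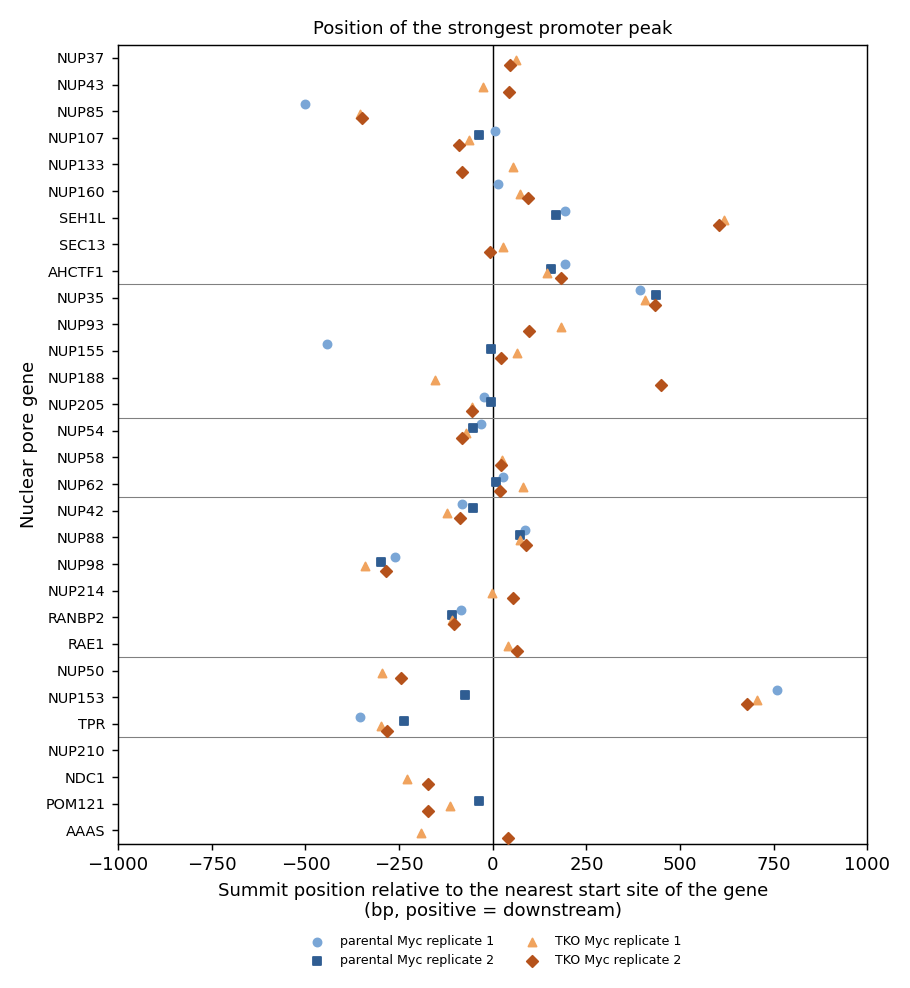
Position of the strongest promoter peak summit of each nuclear pore gene relative to its nearest annotated start site (bp, positive downstream), with 1 symbol per library. Most summits lie within 250 bp of the start, and at RANBP2, NUP88 and NUP35 all 4 libraries coincide within 42 bp.

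A canonical E-box, CACGTG, lay within 50 bp of the summit in few members. In parental replicates 1 and 2 it was found at 3 of 16 and 3 of 15 bound members (18.8% and 20%), against 21.6% and 18.5% of all bound genes. In TKO replicates 1 and 2 it was found at 2 of 29 and 4 of 29 (6.90% and 13.8%), against 9.14% and 8.09%. The members were NUP35 and NUP88 in both TKO libraries, joined by NUP98 and NUP153 in TKO replicate 2, and all of them were also bound in parental cells. None of the 12 members bound in TKO cells alone had one at this distance. The share over all genes bound in TKO cells alone was not counted. At the shares of all bound genes few would be found among 12, so their absence does not set this class apart. Within 100 bp, 5 of 29 members (17.2%) had an E-box in each TKO library, against 14.4% and 12.7% of all bound genes. NUP188 in TKO replicate 1 and NUP50 in TKO replicate 2 were then among them. In parental replicates 1 and 2 the shares within 100 bp were 25% and 20% of members, against 30.2% and 27.0%. Within 500 bp they were 24.1% of members in each TKO library, against 27.6% and 26.9%.

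The variant E-boxes searched on either strand were CACGCG, then the form CACGAG, then the form CATGTG, and then the form CATGCG. They lay within 50 bp of the summit at 7 of 29 members in each TKO library (24.1%), against 22.1% and 20.3% of all bound genes. RANBP2 had one in all 4 libraries, the CACGCG in the window above. The NRF1 core GCGCATGC contains CGCATG, which is the variant CATGCG read on the opposite strand. Each NRF1 core match was therefore also counted as a variant E-box. It was found only at NUP107, in both TKO libraries and parental replicate 2, and at 1.07% and 1.16% of all bound genes in the TKO libraries. CCAAT boxes lay near the summit at 4 and 3 of 29 members in TKO cells (13.8% and 10.3%), against 8.71% and 8.07%. The ETS motif CCGGAAGT was found at 1 and 2 members, against 3.07% and 3.40% of all bound genes. The SP box GGGCGG was found at 6 and 7 members (20.7% and 24.1%), against 23.3% and 25.1%. The AP-1 motifs TGACTCA and TGAGTCA were found at 0 members in each library, and at 1.69% and 1.46% of all bound genes in the TKO libraries. A motif is a match of letters and was not tested as a binding site.

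In promoter arrangement, 5 of the 30 members had another protein-coding gene starting within 1 kb on the opposite strand in a head-to-head layout, 16.7% against 12.7% of all genes. They were NUP37 with PARPBP, NUP88 with RPAIN, NUP98 with PGAP2, NUP188 with DOLK and TPR with ODR4. NUP37, a Y-complex subunit with its start 69 bp from that of PARPBP, had the lowest mean rank of the bound members over the TKO libraries, at percentiles 6.68 and 37.1, with 1.91 and 2.99 RPM. SEC13, a Y-complex subunit shared with the COPII coat of secretory vesicles, was also low, at percentiles 37.05 and 36.5. At shared promoters the peaks lie at both genes. GC content within 200 bp of the summit in TKO cells had medians of 63.3% for members in both libraries and 63.6% and 63.8% for all bound genes.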

How the data were processed

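Myc ChIP-seq was done in parental MDA-MB-231 and TKO cells (2 libraries each, with input chromatin per line). Groups and replicate numbers came from sample titles. The study calls the Myc libraries of a line biological replicates, but separate cultures are not named in the labels, so p-values measure the spread between these libraries, which may be technical. The authors aligned single-end reads to hg19 with Novoalign 3.08.02 and called peaks in each library with MACS2 2.1.1.20160309 against input. How duplicate reads were handled is not given in the sources used here. Each deposited list gives a fold by the authors (the ratio of reads at the summit over the local background), their −log10 p-value and −log10 q-value, and a deposited score that follows the −log10 q-value.

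Whole summit reads were solved from the fold and p-value. In all lists 100% of peaks had a whole number that met their −log10 p-value to within 0.002, and 9 to 14% of sampled peaks did at a wrong scale. Depth assumes a genome of 2700000000 bases, and extension is the narrowest peak of a list. Start sites were those of basic protein-coding transcripts in GENCODE 44 on GRCh37 (30 of 30 members found). Where a gene had several promoter peaks the one of highest fold was used. Summit RPM on the log2 scale was compared with limma 3.58.1 (R 4.3.3), no covariates, two-sided, Benjamini-Hochberg, threshold 0.05. Single genes were tested by exact permutation over the 6 splits. Python 3.11.15, numpy 2.4.6, pandas 2.3.3, pysam 0.24.0, samtools 1.23.1 and matplotlib 3.10.9 were used, and the steps were tested on simulated data.

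The members, lists, tests and alternatives were chosen with earlier results of these data known. Named genes were members bound in all 4 libraries or in 1 parental library, those lacking a TKO peak, NUP43, and the 6 of highest mean TKO percentile among those bound in TKO cells alone. NUP37, SEC13, NUP58 and the additional sequences were named after their values were seen. Alternatives were TSS windows of 500 bp, 3 kb and 5 kb, a −log10 q-value or fold of at least 5, lists of equal length, principal or nearest start sites, overlap rules, other scalings, a replicate block and each library left out. Input libraries had no peak list and were not analysed here.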

Additional observations from a re-analysis of the deposited data

How the results depend on the processing

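The ratio of members with a promoter peak, TKO over parental, was 1.87, and rose to 2.84 at a fold of at least 5 and fell to 1.22 with equal list length, where the ratio over all genes went from 3.94 to 4.96 and 1.26. With the full lists and at a fold of at least 5, most members were bound in TKO cells, which capped their ratio. In those settings it cannot be set against that of all genes. Members bound in TKO cells alone numbered 12, and 3 with equal list length. Members bound in all 4 libraries numbered 14, but 7 at a fold of at least 5, 9 with equal list length and 1 under 50% reciprocal overlap. Under these settings the same classes were not counted over all genes. These falls are therefore not shown to be particular to members. The members' median percentile, averaged over the TKO libraries, was 85.3, and 88.9 by −log10 p-value, 43.4 with equal list length (by construction a rank among stronger peaks) and 83.9 with a 500 bp window. The share with an E-box near TKO summits was 10.3%, and 17.2% within 100 bp. Centring on the median of all genes left 0 of 14 members called, and the log2 difference changed sign for AHCTF1 (−0.50), NUP98 (−0.38), NUP107 (−0.22), NUP62 (−0.20), NUP153 (−0.19), NUP54 (−0.18) and NUP155 (−0.078). The other 59 checks of group results kept within the limits set. The cause of these shifts was not tested beyond the construction of each alternative.

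Leaving out each library in turn gave ratios of 1.81 to 1.93, 12 to 14 members bound in TKO cells alone, 14 to 16 bound in every library kept, percentiles of 84.7 to 85.9, E-box shares of 6.90% to 13.8% and 13 to 14 members called. AHCTF1 lost its call without parental replicate 1 (0.46, limma adjusted p = 0.11). In these fits the lone library of a group was assumed to vary like the others. Replicate numbers are shared between the cell lines, but deviations of same-numbered libraries correlated at only 0.07 over 1843 genes, so they were not taken as pairs. With a replicate block the ratio was 1.87, 14 members were called, and 1832 genes in place of 1831. Depth, lowest in TKO replicate 2 at 13.0 M reads, limits the weaker peaks, and a gene without a peak was below the calling threshold and not shown to be unbound.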
